A study of Mus musculus with 16 samples.

Results

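The 34 genes described here make fatty acids and build them into triglyceride, or control those steps. They were chosen by gene symbol and not by a cut on measured values, but earlier results of these data were known. Each symbol matched 1 of the 55416 Ensembl genes listed for every liver. All 34 passed the filter on low counts, and they are 34 of the 14770 genes tested. Poly(A) RNA was sequenced from the livers of 16 wild-type C57BL/6J mice, which formed 4 groups of 4. Every mouse had an adenovirus injected into the tail vein at 8 weeks of age, so no group is free of virus. Ad-FAT10 carries FAT10, a ubiquitin-like modifier encoded by Ubd, and Ad-CTRL is its control virus. The promoter that drives FAT10, and the liver cells that took up the virus, are not given in the labels. After 4 days the mice were gavaged 18 h and 5 h before the livers were taken, either with 1 mpk of pemafibrate (Pema), an agonist of the nuclear receptor PPARα, or with its vehicle carboxymethyl cellulose (CMC), and food was withheld for the last 5 h. The groups are therefore Ad-FAT10 Pema, Ad-FAT10 CMC, Ad-CTRL Pema and Ad-CTRL CMC. Pema was compared with CMC under each virus, and Ad-FAT10 with Ad-CTRL under each treatment.

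Fatty acids are made in the hepatocyte cytosol from acetyl-CoA, which acetyl-CoA carboxylase turns into malonyl-CoA and fatty acid synthase condenses into palmitate at the cost of NADPH. Elongases and desaturases then lengthen and unsaturate the chain, and acyltransferases place acyl groups on glycerol-phosphate, after which lipins remove the phosphate and diacylglycerol acyltransferases add the last acyl group. In liver the first part of this route is driven by the transcription factors SREBP-1 and ChREBP after feeding, while PPARα is best known for switching on fatty acid oxidation in fasting.

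Between 18663498 and 28898229 counts were obtained per library. Levels are given in CPM, the count scaled to the effective size of its library, and 3 counts equal 0.104 to 0.161 CPM. Ubd averaged 459.8 ± 64.3 CPM in Ad-FAT10 Pema livers, 237 ± 116 CPM in Ad-FAT10 CMC livers, 27.5 ± 14.4 CPM in Ad-CTRL Pema livers and 11.2 ± 3.05 CPM in Ad-CTRL CMC livers (SD, n = 4 each), and no Ad-FAT10 library overlapped an Ad-CTRL library. Ubd was also higher with Pema than with CMC, by log2 changes of 0.96 ± 0.33 (SE, edgeR adjusted p = 0.0413) in Ad-FAT10 livers and 1.30 ± 0.36 (SE, edgeR adjusted p = 0.00945) in Ad-CTRL livers. The Ad-FAT10 comparisons under Pema and under CMC were therefore made at different Ubd levels. Hepatocyte markers were abundant in all 16 libraries, with a summed level of 46148 to 67583 CPM in Ad-FAT10 Pema livers, 63475 to 79242 CPM in Ad-FAT10 CMC livers, 72366 to 102159 CPM in Ad-CTRL Pema livers and 89412 to 118004 CPM in Ad-CTRL CMC livers. Alb, the largest part of this sum, averaged 38846, 43385, 61850 and 68007 CPM in these groups, in the same order. The markers did not all move alike, and Hnf4a averaged 582, 708, 698 and 604 CPM. Fewer cells of a type, less RNA per cell and changes of single markers cannot be told apart in such bulk samples. Libraries of a few mice stood apart. Replicate 4 of Ad-CTRL CMC had the highest level of its group for 29 of the 34 genes, against 30.4% of all genes tested, and replicate 4 of Ad-FAT10 CMC for 18 of the 34, against 26.2%. Replicate 1 of Ad-FAT10 Pema had the highest level of its group for 38.3% of all genes tested and for 10 of the 34. The 34 genes took 1.17% of its counts, against 1.84 to 1.95% in its group mates. Replicate 4 of Ad-FAT10 Pema carried adipocyte markers at a sum of 31.0 CPM, against 4.68 to 13.8 CPM in the other libraries. Results that turn on one of these libraries are given with and without it.

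**Figure D1:**
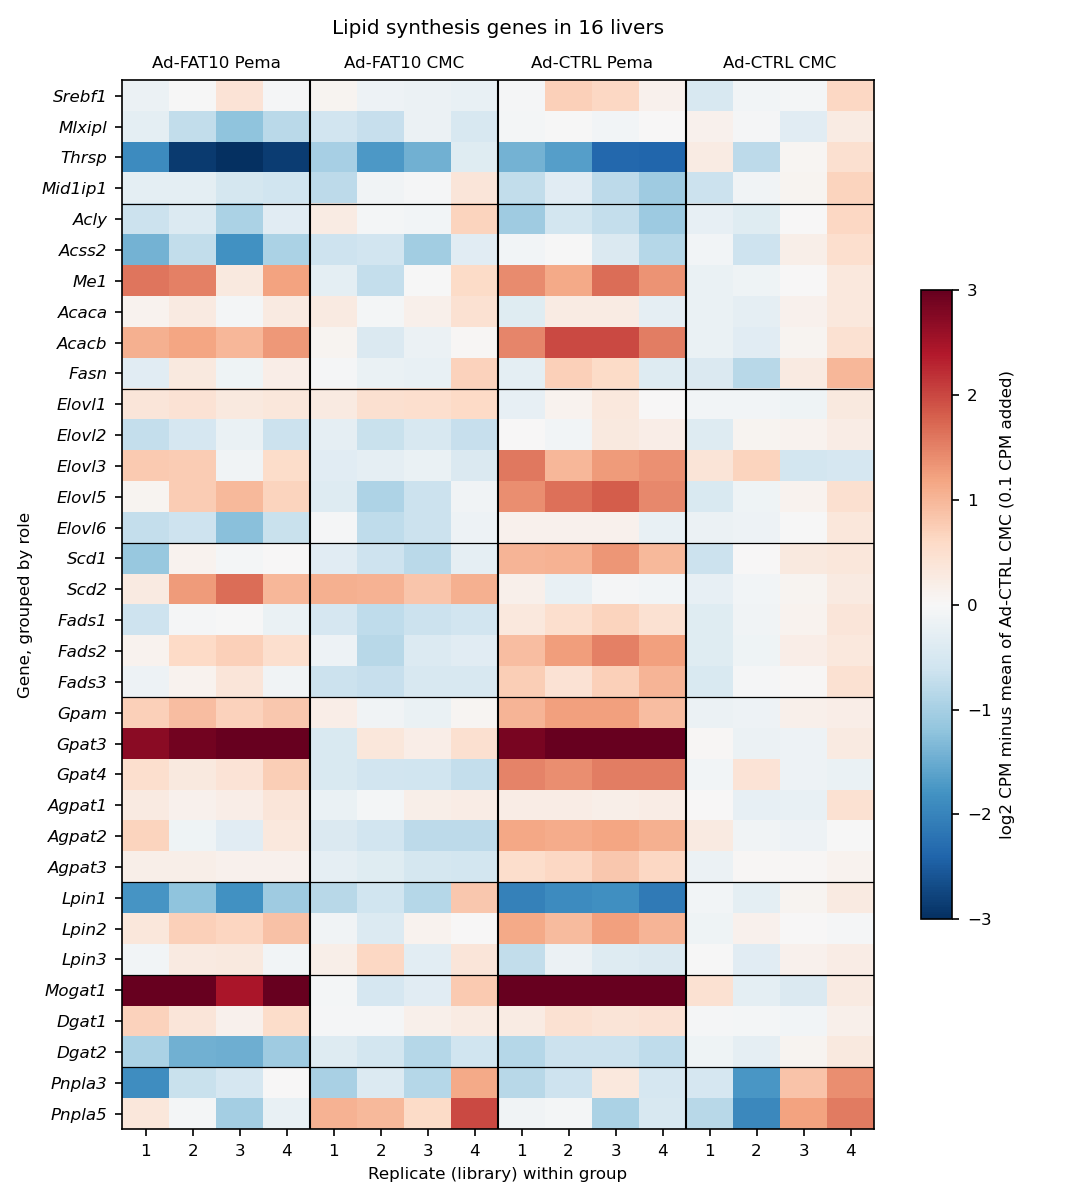
Heat map of the 34 genes (rows, by role) in the 16 libraries (columns, by group), as log2 of CPM plus 0.1 minus the mean of the Ad-CTRL CMC libraries, with the colour scale ending at 3 in each direction. Gpat3 and Mogat1 are the strongest warm bands in all 8 Pema libraries, and Thrsp and Lpin1 are cool there.

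Per kilobase of exon, the 34 genes covered a wide span of levels in Ad-CTRL CMC livers. Scd1, the main stearoyl-CoA desaturase of liver, stood far above the rest at 1993 CPM per kb, followed by Fads2 at 264, Dgat2 at 225, Thrsp at 218 and Elovl2 at 157 CPM per kb. The levels of Fads2, Dgat2 and Thrsp lay within 1 SD of each other. At the low end Pnpla3 and Pnpla5 stood at 0.501 and 0.222 CPM per kb, with 3 counts or fewer in 2 and 4 of the 16 libraries. The 34 genes together took 1.70 ± 0.359% of all counts in Ad-FAT10 Pema livers, 1.35 ± 0.238% in Ad-FAT10 CMC livers, 2.65 ± 0.222% in Ad-CTRL Pema livers and 1.53 ± 0.333% in Ad-CTRL CMC livers (SD, n = 4 each). The Ad-CTRL Pema group was the highest, and Scd1 makes up much of this share.

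Promoter sequences are shown for the genes whose responses span the range described below: Mogat1 and Gpat3, which rose most with Pema, Thrsp and Lpin1, which fell, and Fasn, the synthase itself. They are RefSeq windows of build GRCm38.p6, from 250 bases before to 50 after the transcription start, read 5′ to 3′ on the strand of the gene, with every match to a searched motif in capitals.
Mogat1, chr1:78510810-78511109, plus strand: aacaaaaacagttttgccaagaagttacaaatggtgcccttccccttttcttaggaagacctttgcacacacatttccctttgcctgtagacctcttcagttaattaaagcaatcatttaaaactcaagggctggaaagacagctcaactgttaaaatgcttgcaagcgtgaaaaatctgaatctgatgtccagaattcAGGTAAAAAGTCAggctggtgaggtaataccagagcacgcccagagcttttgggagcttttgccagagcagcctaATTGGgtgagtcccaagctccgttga
Gpat3, chr5:100845979-100846278, plus strand: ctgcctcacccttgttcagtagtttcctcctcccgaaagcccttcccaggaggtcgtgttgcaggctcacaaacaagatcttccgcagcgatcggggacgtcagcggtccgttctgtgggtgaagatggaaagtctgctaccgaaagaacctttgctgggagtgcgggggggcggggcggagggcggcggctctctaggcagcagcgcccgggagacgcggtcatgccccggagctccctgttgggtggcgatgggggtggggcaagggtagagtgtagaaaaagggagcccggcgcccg
Thrsp, chr7:97417501-97417800, minus strand: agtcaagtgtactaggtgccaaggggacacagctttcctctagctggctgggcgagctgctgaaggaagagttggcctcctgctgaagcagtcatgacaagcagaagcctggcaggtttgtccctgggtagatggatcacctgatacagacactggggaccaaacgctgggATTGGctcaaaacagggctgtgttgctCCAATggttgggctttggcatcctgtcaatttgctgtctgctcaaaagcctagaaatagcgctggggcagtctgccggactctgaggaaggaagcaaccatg
Lpin1, chr12:16610917-16611216, minus strand: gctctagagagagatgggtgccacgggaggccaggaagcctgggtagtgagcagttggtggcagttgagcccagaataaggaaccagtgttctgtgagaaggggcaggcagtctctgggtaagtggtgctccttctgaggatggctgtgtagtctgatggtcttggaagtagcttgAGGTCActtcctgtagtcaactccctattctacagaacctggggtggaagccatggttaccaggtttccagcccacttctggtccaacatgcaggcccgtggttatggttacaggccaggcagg
Fasn, chr11:120824498-120824797, minus strand: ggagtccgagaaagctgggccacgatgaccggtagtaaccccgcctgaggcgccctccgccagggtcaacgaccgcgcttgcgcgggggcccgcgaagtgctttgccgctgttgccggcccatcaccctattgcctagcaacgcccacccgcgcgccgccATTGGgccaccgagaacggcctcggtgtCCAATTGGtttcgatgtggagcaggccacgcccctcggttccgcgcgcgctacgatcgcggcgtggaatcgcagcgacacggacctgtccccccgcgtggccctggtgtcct

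Such windows were matched for 27 of the 34 genes (38 windows, out of 32851 in all). The motifs, searched on both strands, were the sterol element core TCACCCCAC, the E-box CACGTG, the CCAAT box, the nuclear receptor site AGGTCA, and direct repeats of that site spaced by 1 base (DR1, the form PPARα and its partner RXR bind) or by 4 bases (DR4, the form that LXR and RXR bind), each with up to 2 mismatches. A repeat can contain an AGGTCA match, and the 2 matches then share letters. Mogat1 holds a DR1 match starting 51 bases before the start, and a reversed CCAAT box. Thrsp has 2 CCAAT boxes, Lpin1 has 1 AGGTCA match, and Fasn has 3 CCAAT boxes, of which 2 share letters. Gpat3 has no match in these letters. Over the 38 windows DR1 was found in 2 (Mogat1 and Elovl1; 3.86% of all windows), DR4 in 1 (Gpam; 3.02%), AGGTCA in 7 (16.3%), the E-box in 5 (7.15%), CCAAT in 18 (37.4%) and the sterol core in 0 (0.551%). The absence of a motif says only that its letters are not in that window.

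With Pema, 5 of 6 genes of glycerol-phosphate acylation were higher under both viruses. Of 5 desaturases 3 were higher in Ad-FAT10 livers and 4 in Ad-CTRL livers. Under both viruses 2 of 5 elongases, and 2 of 6 genes of acetyl-CoA, NADPH and chain synthesis (Me1 and Acacb), were higher. Thrsp, Acly, Lpin1 and Dgat2 were lower under both viruses, and Fasn and Acaca did not pass the test. In Ad-FAT10 livers 15 of the 34 genes were higher and 5 lower, where 12.9% and 12.5% of all genes tested were called higher and lower (25.4% in either direction). In Ad-CTRL livers 16 were higher and 5 lower, where 16.2% and 14.4% of all genes were (30.6% in either direction). Of these called genes, 6 up and 3 down in Ad-FAT10 livers, and 12 up and 2 down in Ad-CTRL livers, changed at least 2-fold. The share of all genes at that cut was not counted, so these counts have no background beside them. The median log2 change of the 34 was 0.19 in Ad-FAT10 livers and 0.26 in Ad-CTRL livers, beside -0.01 over all genes in both. Without replicate 3 of Ad-FAT10 Pema the Ad-FAT10 median was 0.12, and without replicate 4 of Ad-CTRL CMC the Ad-CTRL median was 0.47. A gene was called at an adjusted p under 0.05. Unless the DESeq2 test is named, each adjusted p below is from the quasi-likelihood test of edgeR with Benjamini-Hochberg adjustment. The adjustment is over all 14770 genes in the main fit. In fits with another filter, fewer groups or a library left out it is over the genes that fit kept. Changes are fitted log2 ratios with their standard error.

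**Figure D2:**
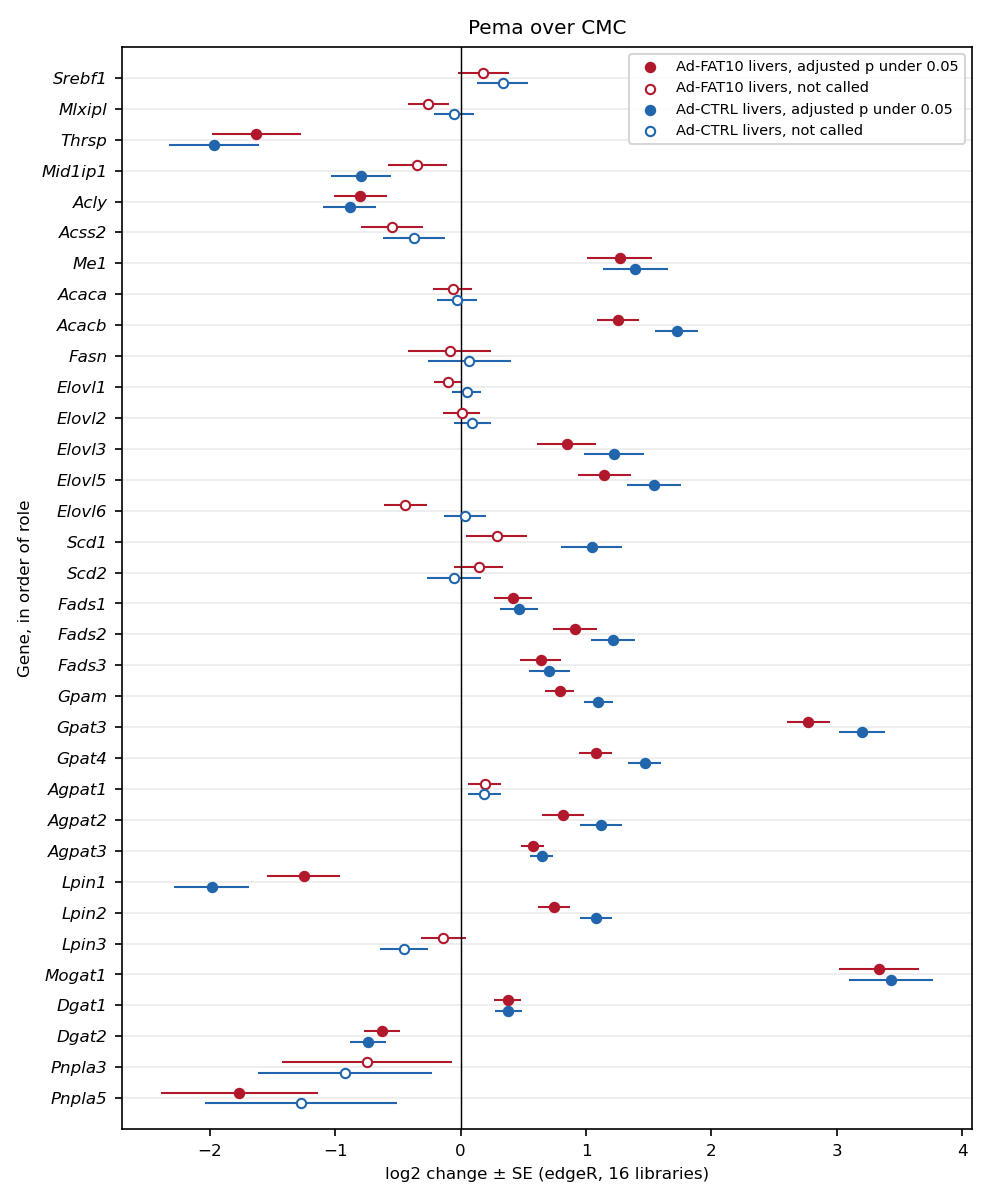
Log2 change with Pema relative to CMC for the 34 genes, in Ad-FAT10 livers and in Ad-CTRL livers, with standard errors (4 libraries a group). Mogat1 and Gpat3 lie farthest to the right under both viruses, at 2.77 to 3.43, and Thrsp and Lpin1 lie below -1 under both.

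The regulators did not move together. SREBP-1, the product of Srebf1, drives lipogenic genes in response to insulin, and the gene's count adds up its transcript forms. In Ad-FAT10 livers Srebf1 stood at 176, 199, 268 and 196 CPM with Pema and 212, 181, 177 and 171 CPM with CMC. In Ad-CTRL livers Srebf1 stood at 196, 330.3, 307 and 219 CPM with Pema and 144, 188, 193 and 308 CPM with CMC. The groups overlapped under both viruses, and replicate 4 of Ad-CTRL CMC was far above its 3 group mates. For Srebf1 the log2 change was 0.18 ± 0.20 (SE, adjusted p = 0.574) in Ad-FAT10 livers and 0.34 ± 0.20 (SE, adjusted p = 0.236) in Ad-CTRL livers. Without that library it was 0.59 in Ad-CTRL livers, at an adjusted p of 0.0241.

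ChREBP, the product of Mlxipl, responds to glucose metabolites. Mlxipl levels were 189, 139, 99.5 and 132 CPM in Ad-FAT10 Pema livers and 156, 143, 204 and 165 CPM in Ad-FAT10 CMC livers. In Ad-CTRL livers Mlxipl was at 224, 231, 217 and 232 CPM with Pema and 251, 227, 183 and 274 CPM with CMC. Pema and CMC libraries overlapped under both viruses. For Mlxipl the log2 change was -0.26 ± 0.16 (SE, adjusted p = 0.278) in Ad-FAT10 livers and -0.05 ± 0.16 (SE, adjusted p = 0.861) in Ad-CTRL livers, and without replicate 1 of Ad-FAT10 Pema the change in Ad-FAT10 livers passed the test (-0.44, adjusted p = 0.0361).

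Thrsp encodes the small acidic protein known as Spot14, a lipogenic factor strongly induced by carbohydrate feeding, and it fell under both viruses. In Ad-FAT10 livers Thrsp stood at 123, 61.5, 38.1 and 63.4 CPM with Pema and 228, 136, 166 and 352 CPM with CMC. In Ad-CTRL livers Thrsp stood at 170.5, 143, 87.9 and 87.5 CPM with Pema and 539, 263, 469.9 and 636 CPM with CMC. Every Pema library lay below every CMC library of its virus, although libraries of 1 group differed from each other severalfold. For Thrsp the log2 change was -1.63 ± 0.36 (SE, adjusted p = 0.0023) in Ad-FAT10 livers and -1.96 ± 0.36 (SE, adjusted p = 0.000385) in Ad-CTRL livers. Mid1ip1, a relative of Thrsp whose product promotes assembly of acetyl-CoA carboxylase into filaments, averaged 24.9 ± 2.72 CPM with Pema and 31.6 ± 9.86 CPM with CMC in Ad-FAT10 livers, and 20.4 ± 4.27 and 35.3 ± 13.4 CPM in Ad-CTRL livers (SD, n = 4 each). Its log2 change was -0.34 ± 0.24 (SE, adjusted p = 0.325) in Ad-FAT10 livers and -0.79 ± 0.24 (SE, adjusted p = 0.0173) in Ad-CTRL livers. The Ad-CTRL call was lost without replicate 4 of Ad-CTRL CMC (-0.53, adjusted p = 0.0943) or replicate 4 of Ad-CTRL Pema (-0.69, adjusted p = 0.0608).

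Among the genes that supply acetyl-CoA and NADPH, Acly fell and Me1 rose. Acly, ATP citrate lyase, averaged 135 ± 24.2 CPM with Pema and 235 ± 61.0 CPM with CMC in Ad-FAT10 livers, and 113 ± 20.9 and 209 ± 69.6 CPM in Ad-CTRL livers (SD, n = 4 each), with no overlap under either virus. Its log2 change was -0.80 ± 0.21 (SE, adjusted p = 0.00908) in Ad-FAT10 livers and -0.88 ± 0.21 (SE, adjusted p = 0.00376) in Ad-CTRL livers. Acss2, which makes acetyl-CoA from acetate, had log2 changes of -0.55 ± 0.25 (SE, adjusted p = 0.118) in Ad-FAT10 livers and -0.37 ± 0.25 (SE, adjusted p = 0.286) in Ad-CTRL livers, and with no filter on low counts it passed in Ad-FAT10 livers (-0.54, adjusted p = 0.0226). Me1 encodes cytosolic malic enzyme, a source of NADPH. In Ad-FAT10 livers Me1 stood at 762, 717, 309 and 580.0 CPM with Pema and 206, 152, 249 and 375 CPM with CMC. In Ad-CTRL livers Me1 stood at 669, 550.2, 799 and 640.5 CPM with Pema and 218, 228, 253 and 312 CPM with CMC. The groups were apart in Ad-CTRL livers, whereas in Ad-FAT10 livers replicate 3 with Pema lay below replicate 4 with CMC. For Me1 the log2 change was 1.27 ± 0.26 (SE, adjusted p = 0.00143) in Ad-FAT10 livers and 1.39 ± 0.26 (SE, adjusted p = 0.000488) in Ad-CTRL livers.

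The committed steps split by isoform. Fasn, which builds palmitate, did not pass the test under either virus. In Ad-FAT10 livers Fasn stood at 219, 336, 252 and 315 CPM with Pema and 267, 239, 238 and 448 CPM with CMC. In Ad-CTRL livers Fasn stood at 225, 451, 414 and 212 CPM with Pema and 206, 155, 332 and 547 CPM with CMC. Levels within a group were wide, with replicate 4 the highest of both CMC groups, and Pema and CMC overlapped. For Fasn the log2 change was -0.09 ± 0.33 (SE, adjusted p = 0.887) in Ad-FAT10 livers and 0.07 ± 0.33 (SE, adjusted p = 0.908) in Ad-CTRL livers. Without replicate 4 of its CMC group it was 0.18 (adjusted p = 0.764) in Ad-FAT10 livers and 0.50 (adjusted p = 0.269) in Ad-CTRL livers. Acaca, the cytosolic acetyl-CoA carboxylase that feeds Fasn, had log2 changes of -0.06 ± 0.16 (SE, adjusted p = 0.823) in Ad-FAT10 livers and -0.03 ± 0.16 (SE, adjusted p = 0.926) in Ad-CTRL livers.

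Acacb encodes the carboxylase at the mitochondrial outer membrane, whose malonyl-CoA restrains fatty acid entry into mitochondria, and it rose under both viruses. In Ad-FAT10 livers Acacb stood at 227, 246, 219 and 269 CPM with Pema and 115, 80.4, 96.3 and 112 CPM with CMC. In Ad-CTRL livers Acacb stood at 300.2, 429.7, 428 and 318 CPM with Pema and 94.7, 86.4, 115 and 150.4 CPM with CMC. All Pema libraries lay above all CMC libraries of the same virus. For Acacb the log2 change was 1.25 ± 0.17 (SE, adjusted p = 2.69e-05) in Ad-FAT10 livers and 1.72 ± 0.17 (SE, adjusted p = 4.71e-07) in Ad-CTRL livers, which is 2.38-fold and 3.30-fold. Per kilobase of exon, the ratio of Acacb to Acaca was 3.18 to 3.57 in Ad-FAT10 Pema livers, 1.28 to 1.48 in Ad-FAT10 CMC livers, 5.60 to 6.05 in Ad-CTRL Pema livers and 1.61 to 1.87 in Ad-CTRL CMC livers. This ratio was picked after its values were seen, and the 4 groups did not overlap in it.

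Of 5 elongases, Elovl3 and Elovl5 rose under both viruses (12.9% of all genes in Ad-FAT10 livers and 16.2% in Ad-CTRL livers). Elovl5 extends polyunsaturated chains. In Ad-FAT10 livers Elovl5 stood at 402, 647, 743 and 604 CPM with Pema and 289, 199, 243 and 351 CPM with CMC. In Ad-CTRL livers Elovl5 stood at 1005, 1188, 1339 and 1027 CPM with Pema and 276, 348, 409.6 and 533 CPM with CMC. Pema and CMC libraries were fully apart under both viruses, and the log2 change was 1.15 ± 0.21 (SE, adjusted p = 0.000601) in Ad-FAT10 livers and 1.54 ± 0.21 (SE, adjusted p = 2.49e-05) in Ad-CTRL livers. Elovl3 extends saturated and monounsaturated very long chains. In Ad-FAT10 livers Elovl3 stood at 208, 204, 112 and 178 CPM with Pema and 95.3, 100.2, 106 and 89.4 CPM with CMC. In Ad-CTRL livers Elovl3 stood at 363, 239.5, 291 and 313 CPM with Pema and 157, 192, 81.6 and 85.6 CPM with CMC. Here too the groups were apart, by a narrow margin in Ad-FAT10 livers, and the log2 change was 0.85 ± 0.24 (SE, adjusted p = 0.0133) in Ad-FAT10 livers and 1.22 ± 0.24 (SE, adjusted p = 0.000695) in Ad-CTRL livers.

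The other elongases did not pass the test with Pema. Elovl6, which turns palmitate into stearate, had log2 changes of -0.44 ± 0.17 (SE, adjusted p = 0.0683) in Ad-FAT10 livers and 0.03 ± 0.17 (SE, adjusted p = 0.912) in Ad-CTRL livers. Its Ad-FAT10 change passed without replicate 2 of Ad-FAT10 CMC (-0.54, adjusted p = 0.029) or replicate 3 (-0.52, adjusted p = 0.0435), by the DESeq2 test (-0.44, adjusted p = 0.0475) and with no filter on low counts (-0.43, adjusted p = 0.0237). Elovl1, which acts on very long chains, had log2 changes of -0.10 and 0.05, and Elovl2, which acts on long polyunsaturated chains, of 0.01 and 0.10 (Ad-FAT10 and Ad-CTRL livers).

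Fads2 and Fads3 rose under both viruses, and Scd1 was called in Ad-CTRL livers alone. Scd1 puts the double bond into stearate and palmitate. In Ad-FAT10 livers Scd1 stood at 4255, 10124, 9009 and 9433 CPM with Pema and 7491, 6159, 5351 and 7865 CPM with CMC. In Ad-CTRL livers Scd1 stood at 19072, 19442, 23483 and 18527 CPM with Pema and 6049, 9517, 11526 and 11915 CPM with CMC. The Ad-CTRL groups were apart, whereas replicate 1 of Ad-FAT10 Pema was the lowest of all 16 libraries. For Scd1 the log2 change was 0.29 ± 0.24 (SE, adjusted p = 0.437) in Ad-FAT10 livers and 1.05 ± 0.25 (SE, adjusted p = 0.0032) in Ad-CTRL livers, and the test of the difference between these changes gave -0.76 ± 0.34 (SE, adjusted p = 0.444). Over all alternative fits, with each library left out in turn among them, the Ad-FAT10 change of Scd1 ran from 0.17 to 0.50 and was never called.

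Fads2 and Fads1 are the front-end desaturases that make arachidonate and docosahexaenoate from dietary precursors. In Ad-FAT10 livers Fads2 stood at 918, 1297, 1395 and 1209.6 CPM with Pema and 763, 480.0, 645 and 673 CPM with CMC. In Ad-CTRL livers Fads2 stood at 1621, 2036, 2417 and 1998 CPM with Pema and 664, 779.9, 973 and 1057 CPM with CMC. Pema libraries lay above CMC libraries without overlap, and the log2 change was 0.91 ± 0.18 (SE, adjusted p = 0.000919) in Ad-FAT10 livers and 1.22 ± 0.18 (SE, adjusted p = 4.46e-05) in Ad-CTRL livers. Fads1 had log2 changes of 0.42 ± 0.15 (SE, adjusted p = 0.0489) in Ad-FAT10 livers and 0.47 ± 0.15 (SE, adjusted p = 0.0241) in Ad-CTRL livers, and its groups overlapped. The Ad-FAT10 call of Fads1 was lost when 12 of the 16 libraries were left out singly (highest adjusted p 0.135, without replicate 2 of Ad-FAT10 Pema). Its Ad-CTRL call was lost without replicate 1 (0.36, adjusted p = 0.0875) or replicate 2 (0.42, adjusted p = 0.0669) of Ad-CTRL CMC, or replicate 3 of Ad-CTRL Pema (0.40, adjusted p = 0.0821). With DESeq2 size factors the Ad-FAT10 call was lost as well (0.42, adjusted p = 0.0518), and with library totals alone Fads1 was called under neither virus (0.41, adjusted p = 0.0612, in Ad-FAT10 livers and 0.38, adjusted p = 0.0698, in Ad-CTRL livers). Fads3, a related gene, had log2 changes of 0.64 ± 0.16 (SE, adjusted p = 0.0074) in Ad-FAT10 livers and 0.71 ± 0.16 (SE, adjusted p = 0.00264) in Ad-CTRL livers. Scd2, the desaturase form known from brain, had log2 changes of 0.14 and -0.05, neither called.

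At the acylation of glycerol-phosphate 5 of 6 genes rose under both viruses (12.9% of all genes in Ad-FAT10 livers and 16.2% in Ad-CTRL livers). Gpat3 encodes an acyltransferase of the endoplasmic reticulum that makes lysophosphatidate. In Ad-FAT10 livers Gpat3 stood at 33.8, 38.4, 45.6 and 41.7 CPM with Pema and 3.67, 6.50, 5.85 and 7.14 CPM with CMC. In Ad-CTRL livers Gpat3 stood at 37.6, 50.4, 57.2 and 43.9 CPM with Pema and 5.28, 4.53, 4.58 and 6.22 CPM with CMC. Every Pema library was several times any CMC library of its virus. For Gpat3 the log2 change was 2.77 ± 0.17 (SE, adjusted p = 2.5e-09) in Ad-FAT10 livers and 3.20 ± 0.18 (SE, adjusted p = 4.13e-10) in Ad-CTRL livers, or 6.84-fold and 9.19-fold.

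Gpat4 does the same reaction in the endoplasmic reticulum and Gpam at the mitochondrial outer membrane. In Ad-FAT10 livers Gpat4 stood at 311, 269, 291 and 368 CPM with Pema and 160.3, 148, 145 and 134 CPM with CMC. In Ad-CTRL livers Gpat4 stood at 614, 578, 634 and 640.4 CPM with Pema and 208, 294, 199 and 191 CPM with CMC. The groups were apart under both viruses, and the log2 change was 1.08 ± 0.13 (SE, adjusted p = 8.3e-06) in Ad-FAT10 livers and 1.47 ± 0.13 (SE, adjusted p = 1.33e-07) in Ad-CTRL livers. In Ad-FAT10 livers Gpam stood at 324, 376, 319 and 346 CPM with Pema and 227, 184, 173 and 205 CPM with CMC. In Ad-CTRL livers Gpam stood at 405, 467, 466 and 376 CPM with Pema and 176, 178, 220.2 and 226 CPM with CMC. Gpam groups were apart as well, with a log2 change of 0.79 ± 0.12 (SE, adjusted p = 7.25e-05) in Ad-FAT10 livers and 1.10 ± 0.12 (SE, adjusted p = 1.17e-06) in Ad-CTRL livers. Per kilobase, Gpat3 made up 10.5 ± 1.41% of the summed level of the 3 genes in Ad-FAT10 Pema livers, 3.15 ± 0.938% in Ad-FAT10 CMC livers, 7.90 ± 1.06% in Ad-CTRL Pema livers and 2.29 ± 0.447% in Ad-CTRL CMC livers (SD, n = 4 each), so Gpat3 had the largest relative rise of the 3 genes and remained the least abundant.

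Agpat2, which turns lysophosphatidate into phosphatidate and is lost in a human lipodystrophy, also rose. In Ad-FAT10 livers Agpat2 stood at 338, 194, 168 and 264 CPM with Pema and 156, 143, 124 and 123 CPM with CMC. In Ad-CTRL livers Agpat2 stood at 473, 457, 486 and 446 CPM with Pema and 255, 197, 192 and 212 CPM with CMC. No library overlapped under either virus, and the log2 change was 0.82 ± 0.17 (SE, adjusted p = 0.00138) in Ad-FAT10 livers and 1.12 ± 0.17 (SE, adjusted p = 5.57e-05) in Ad-CTRL livers. Agpat3, another enzyme of this family, had log2 changes of 0.58 ± 0.09 (SE, adjusted p = 0.000156) in Ad-FAT10 livers and 0.65 ± 0.09 (SE, adjusted p = 3.27e-05) in Ad-CTRL livers, also without overlap. Agpat1 was the exception, with log2 changes of 0.19 ± 0.13 (SE, adjusted p = 0.322) in Ad-FAT10 livers and 0.19 ± 0.13 (SE, adjusted p = 0.321) in Ad-CTRL livers, and it passed in Ad-CTRL livers without replicate 4 of Ad-CTRL CMC (0.37, adjusted p = 0.0194).

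The lipins changed in opposite directions, Lpin1 down and Lpin2 up. Both dephosphorylate phosphatidate to diacylglycerol, and lipin-1 also acts in the nucleus as a coactivator with PPARα. In Ad-FAT10 livers Lpin1 stood at 36.2, 53.2, 34.9 and 58.9 CPM with Pema and 69.6, 81.9, 68.6 and 215 CPM with CMC. In Ad-CTRL livers Lpin1 stood at 30.2, 33.4, 34.3 and 28.6 CPM with Pema and 118, 102, 130.4 and 150.4 CPM with CMC. Pema libraries were below all CMC libraries of their virus, and replicate 4 of Ad-FAT10 CMC was far above its 3 group mates. For Lpin1 the log2 change was -1.25 ± 0.29 (SE, adjusted p = 0.00365) in Ad-FAT10 livers and -1.98 ± 0.30 (SE, adjusted p = 5.98e-05) in Ad-CTRL livers. Without that replicate the Ad-FAT10 change was -0.68, at an adjusted p of 0.00617.

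In Ad-FAT10 livers Lpin2 stood at 409, 533, 506 and 601 CPM with Pema and 304, 246, 350.0 and 326 CPM with CMC. In Ad-CTRL livers Lpin2 stood at 708, 622, 759 and 661 CPM with Pema and 299, 356, 329 and 317 CPM with CMC. The groups were apart, and the log2 change was 0.74 ± 0.13 (SE, adjusted p = 0.000296) in Ad-FAT10 livers and 1.08 ± 0.13 (SE, adjusted p = 4.03e-06) in Ad-CTRL livers. Lpin3, the least abundant lipin, had log2 changes of -0.14 ± 0.18 (SE, adjusted p = 0.643) in Ad-FAT10 livers and -0.45 ± 0.19 (SE, adjusted p = 0.0837) in Ad-CTRL livers. It passed in Ad-CTRL livers without replicate 2 of Ad-CTRL CMC (-0.55, adjusted p = 0.0426) or replicate 3 of Ad-FAT10 CMC (-0.45, adjusted p = 0.046), with library totals alone (-0.54, adjusted p = 0.0341) and in a fit of the 2 compared groups (-0.46, adjusted p = 0.0418). Per kilobase, Lpin1 made up 9.68 ± 1.45% of the summed lipin level in Ad-FAT10 Pema livers, 27.7 ± 11.0% in Ad-FAT10 CMC livers, 5.40 ± 0.540% in Ad-CTRL Pema livers and 31.2 ± 4.17% in Ad-CTRL CMC livers (SD, n = 4 each). Lpin2 was the most abundant lipin in all 4 groups.

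**Figure D3:**
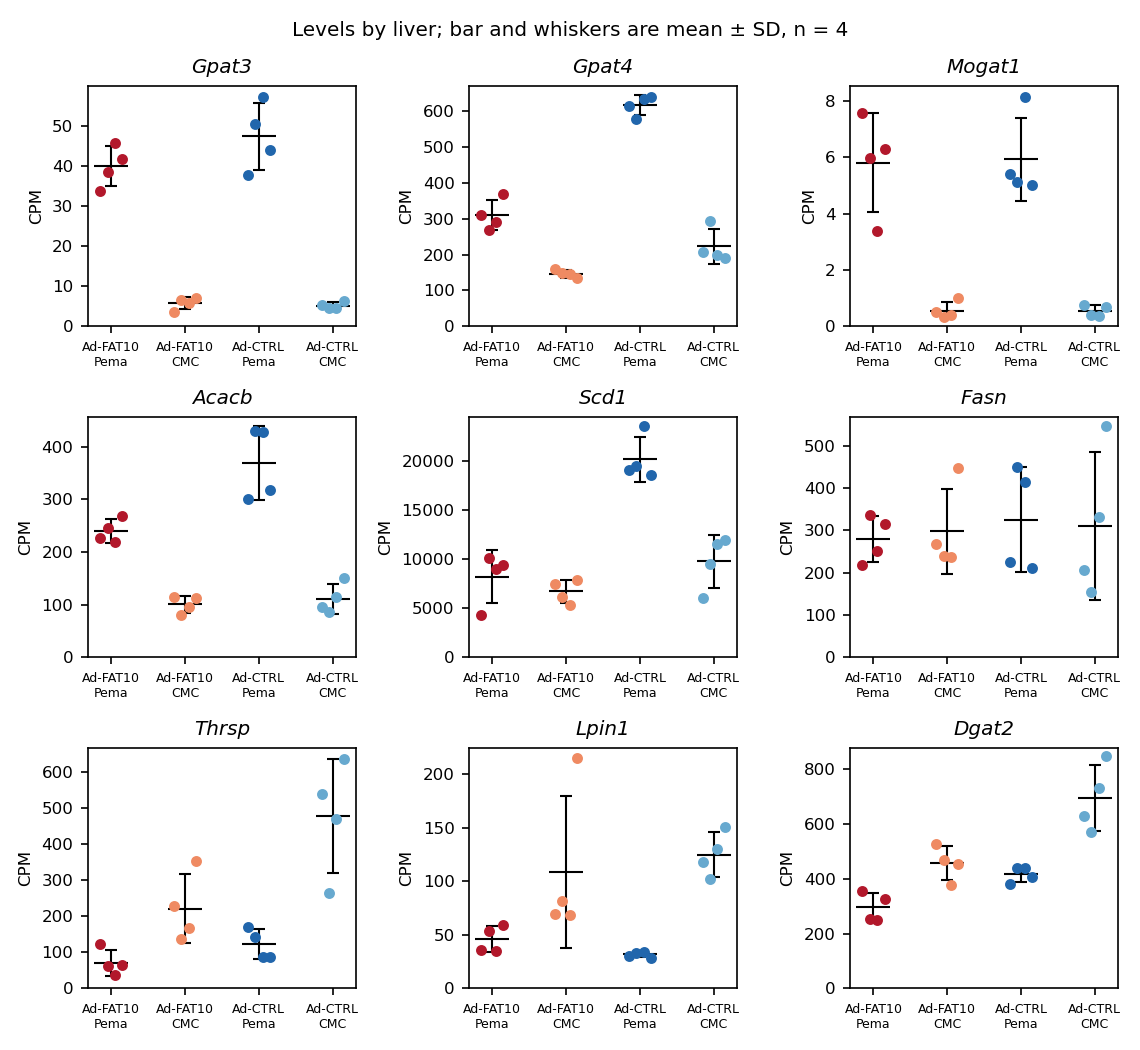
Levels in CPM (axes from 0) of 9 of the genes in each library, with group means, in the order Ad-FAT10 Pema, Ad-FAT10 CMC, Ad-CTRL Pema and Ad-CTRL CMC. Pema libraries of Gpat3, Gpat4, Mogat1 and Acacb lie above the CMC libraries of the same virus, those of Thrsp, Lpin1 and Dgat2 lie below, and those of Fasn overlap.

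At the last steps Mogat1 rose and Dgat2 fell. Mogat1 acylates monoacylglycerol and is a low-abundance gene here. In Ad-FAT10 livers Mogat1 stood at 7.57, 5.99, 3.38 and 6.28 CPM with Pema and 0.504, 0.344, 0.397 and 0.996 CPM with CMC. In Ad-CTRL livers Mogat1 stood at 5.39, 5.13, 8.13 and 5.02 CPM with Pema and 0.763, 0.416, 0.370 and 0.669 CPM with CMC. The highest CMC library stayed below the lowest Pema library of either virus. For Mogat1 the log2 change was 3.34 ± 0.32 (SE, adjusted p = 4.8e-07) in Ad-FAT10 livers and 3.43 ± 0.34 (SE, adjusted p = 4.54e-07) in Ad-CTRL livers, the largest of the 34 under both viruses. Dgat1 and Dgat2 encode unrelated enzymes that add the third acyl group. Dgat2 averaged 296 ± 53.4 CPM with Pema and 456 ± 61.4 CPM with CMC in Ad-FAT10 livers, and 417 ± 28.6 and 695 ± 122 CPM in Ad-CTRL livers (SD, n = 4 each). Its Pema libraries lay below its CMC libraries without overlap, and the log2 change was -0.62 ± 0.14 (SE, adjusted p = 0.00338) in Ad-FAT10 livers and -0.74 ± 0.14 (SE, adjusted p = 0.000679) in Ad-CTRL livers. Dgat1 had log2 changes of 0.38 ± 0.11 (SE, adjusted p = 0.0155) in Ad-FAT10 livers and 0.38 ± 0.11 (SE, adjusted p = 0.0127) in Ad-CTRL livers, both called. Its Ad-FAT10 call was lost without replicate 1 of Ad-FAT10 CMC (0.34, adjusted p = 0.0507) or replicate 1 of Ad-FAT10 Pema (0.29, adjusted p = 0.0573).

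The patatin-like genes were close to the detection limit. Pnpla3, which encodes a lipid droplet protein with a human variant tied to fatty liver, averaged 0.323 ± 0.196 CPM with Pema and 0.542 ± 0.513 CPM with CMC in Ad-FAT10 livers, and 0.408 ± 0.198 and 0.775 ± 0.683 CPM in Ad-CTRL livers (SD, n = 4 each). Its log2 change was -0.75 ± 0.68 (SE, adjusted p = 0.474) in Ad-FAT10 livers and -0.92 ± 0.69 (SE, adjusted p = 0.358) in Ad-CTRL livers. In Ad-FAT10 livers Pnpla5 stood at 0.386, 0.267, 0.0890 and 0.228 CPM with Pema and 0.688, 0.650, 0.470 and 1.41 CPM with CMC. In Ad-CTRL livers Pnpla5 stood at 0.259, 0.267, 0.0998 and 0.176 CPM with Pema and 0.117, 0, 0.786 and 1.03 CPM with CMC. The Ad-FAT10 groups were apart and the Ad-CTRL groups overlapped, with 1 library at 0. For Pnpla5 the log2 change was -1.77 ± 0.63 (SE, adjusted p = 0.046) in Ad-FAT10 livers and -1.27 ± 0.76 (SE, adjusted p = 0.234) in Ad-CTRL livers. The Ad-FAT10 call was lost when 11 of the 16 libraries were left out singly (highest adjusted p 0.171, without replicate 4 of Ad-FAT10 CMC) and with a replicate block (-1.71, adjusted p = 0.0565). It was gained in Ad-CTRL livers without replicate 2 of Ad-CTRL CMC (-1.70, adjusted p = 0.0495).

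The Pema responses under the 2 viruses share no library. The 15 genes higher in Ad-FAT10 livers were all among the 16 higher in Ad-CTRL livers (100% and 93.8% of the lists), with Scd1 the gene called in Ad-CTRL livers alone. Of 5 genes lower under each virus, 4 were shared (80% of each list), namely Thrsp, Acly, Lpin1 and Dgat2. Pnpla5 was the other in Ad-FAT10 livers and Mid1ip1 in Ad-CTRL livers. Each of the 16 genes higher in Ad-CTRL livers had a smaller log2 change in Ad-FAT10 livers, but they were picked by their Ad-CTRL call, and the test of the difference called 0 of the 34, where 0.156% of all genes were called. At an unadjusted p under 0.05 edgeR gave 2 of the 34 genes, Scd1 and Gpat4 (difference -0.39 ± 0.18 (SE, adjusted p = 0.456)). Of all 14770 genes 1591 were under that p, so the 2 do not stand out. With edgeR 7 of the 34 were under it with no filter on low counts, and 0 with library totals alone. DESeq2 called 0 of the 34, with 2 under that p. The median difference was -0.14, between -0.25 and -0.037 when 1 library was left out. For Lpin1 the difference was 0.73 ± 0.41 (SE, adjusted p = 0.534), and without replicate 4 of Ad-FAT10 CMC it was called, at 1.30 with an adjusted p of 0.0303.

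Relative to Ad-CTRL, more of the 34 genes were lower than higher in Ad-FAT10 livers. When libraries were scaled by their totals alone this split turned, while the calls over all genes also moved towards higher. Under Pema 17 of the 34 genes were lower and 3 higher, where 20.5% and 21.2% of all genes were called lower and higher (41.7% in either direction). Under CMC 11 were lower and 2 higher, where 20.2% and 22.5% of all genes were (42.6% in either direction), so the share of genes called in either direction was near that of all genes under CMC. The median log2 change of the 34 was -0.38 under Pema and -0.18 under CMC, beside -0.02 and -0.01 over all genes. When libraries were scaled by their totals alone, the median of all genes moved to 0.34 under Pema and 0.28 under CMC, and the calls below changed for many genes: 5 genes were then lower and 9 higher under Pema, and 2 lower and 6 higher under CMC. Most of this came from lower calls that were lost and from genes newly called higher, and Gpam under Pema was the 1 called gene whose sign turned. Relative to the median of all genes, the median of the 34 was -0.36 under Pema and -0.18 under CMC with composition scaling, and -0.35 and -0.16 with library totals alone. Without replicate 4 of Ad-CTRL CMC the CMC median was -0.034 with 9 genes called, and without replicate 4 of Ad-FAT10 CMC it was -0.37 with 14 called.

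**Figure D4:**
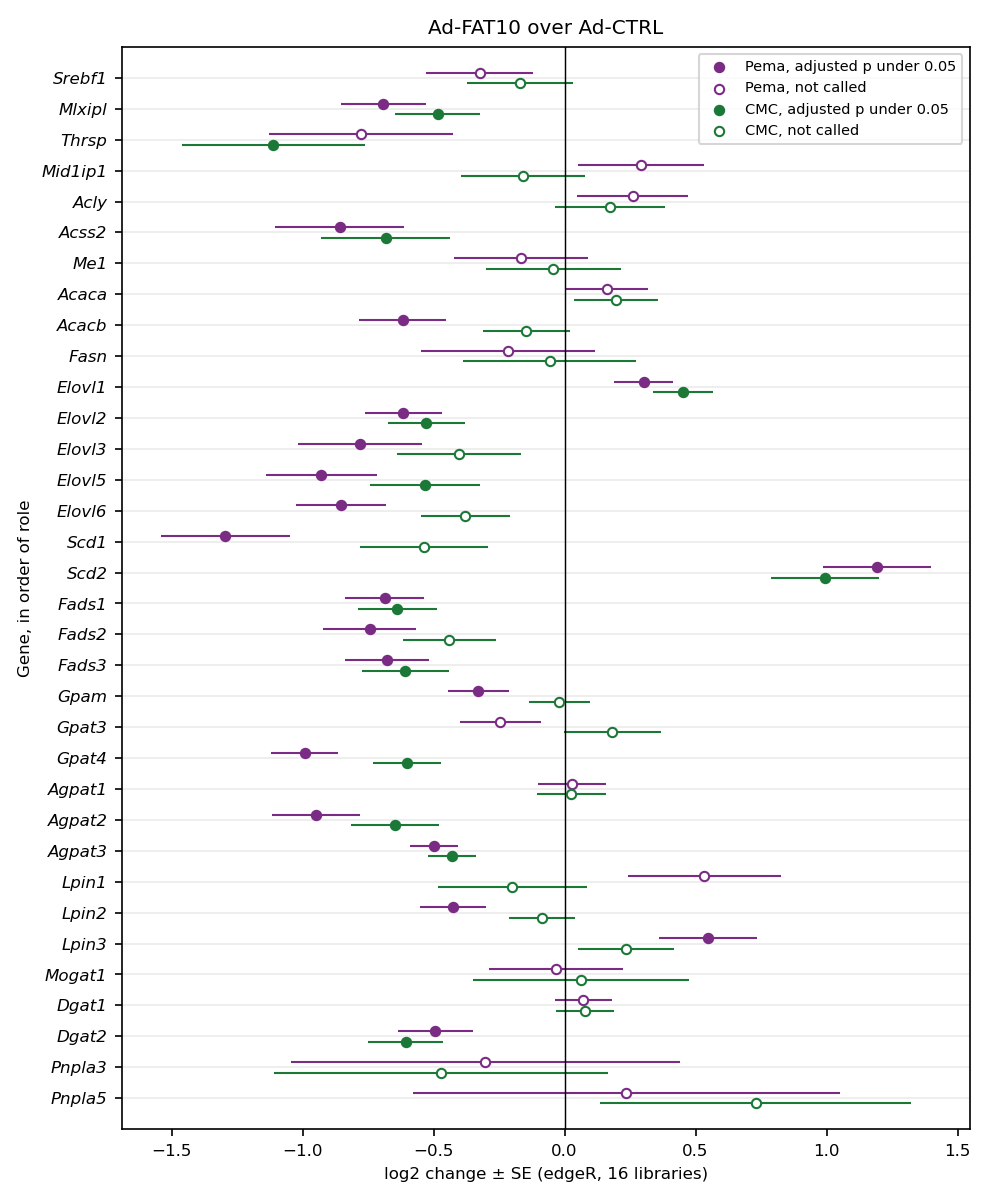
Log2 change in Ad-FAT10 relative to Ad-CTRL livers for the 34 genes, under Pema and under CMC, with standard errors (4 libraries a group). Scd2 lies farthest to the right, at 1.19 under Pema and 1.00 under CMC, and most points under Pema lie left of 0 with the composition scaling used here, which library totals alone do not give (median -0.012).

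The Ad-FAT10 comparisons under Pema and under CMC share no library. Of the genes lower, 10 were called under both treatments, 58.8% of the Pema list and 90.9% of the CMC list: Mlxipl, Acss2, Elovl2, Elovl5, Fads1, Fads3, Gpat4, Agpat2, Agpat3 and Dgat2. Elovl1 and Scd2 were higher under both. With library totals alone Gpat4 was still lower under both treatments, Elovl1 and Scd2 were still higher under both, Elovl5 and Agpat2 were lower under Pema, Dgat2 was lower under CMC, and the other genes of this list of 10 were called under neither. The genes called higher with library totals alone were Acaca, Elovl1, Scd2, Lpin3 and Dgat1 under both treatments, Mid1ip1, Acly, Agpat1 and Lpin1 under Pema, and Gpat3 under CMC.

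By role, 1 of 4 regulators was lower under Pema and 2 of 4 under CMC (20.5% and 20.2% of all genes), but none with library totals alone. Counts this small cannot be set apart from those shares. Mlxipl fell, with log2 changes of -0.69 ± 0.16 (SE, adjusted p = 0.00241) under Pema and -0.48 ± 0.16 (SE, adjusted p = 0.0218) under CMC, and all Ad-FAT10 Pema libraries lay below all Ad-CTRL Pema libraries, but with library totals alone the call was lost (-0.34, adjusted p = 0.0799, and -0.19, adjusted p = 0.344). The CMC call was also lost without replicate 1 (-0.45, adjusted p = 0.0528) or replicate 4 (-0.40, adjusted p = 0.0715) of Ad-CTRL CMC, or replicate 1 of Ad-FAT10 CMC (-0.45, adjusted p = 0.0525). Srebf1 had log2 changes of -0.32 ± 0.20 (SE, adjusted p = 0.21) under Pema and -0.17 ± 0.20 (SE, adjusted p = 0.519) under CMC and Mid1ip1 of 0.29 and -0.16 (Pema and CMC; not called). Thrsp had log2 changes of -0.78 ± 0.35 (SE, adjusted p = 0.0827) under Pema and -1.11 ± 0.35 (SE, adjusted p = 0.0161) under CMC. The CMC call of Thrsp was lost without replicate 4 of Ad-CTRL CMC (-0.94, adjusted p = 0.0529), without replicate 3 of Ad-FAT10 CMC (adjusted p = 0.0508) and with library totals (-0.80, adjusted p = 0.0656), and its Pema change passed without replicate 1 of Ad-FAT10 Pema (-1.17, adjusted p = 0.00947), with no filter on low counts (-0.75, adjusted p = 0.00886) and with a replicate block (-0.86, adjusted p = 0.0253).

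Of the 6 genes of acetyl-CoA, NADPH and chain synthesis, 2 fell under Pema and 1 under CMC, but none with library totals alone. These counts, too, are not set apart from the 20.5% and 20.2% of all genes called lower. Acss2 fell, with log2 changes of -0.86 ± 0.25 (SE, adjusted p = 0.00979) under Pema and -0.68 ± 0.25 (SE, adjusted p = 0.0327) under CMC. The CMC call was lost without replicate 3 (-0.64, adjusted p = 0.0722) or 4 (-0.49, adjusted p = 0.129) of Ad-CTRL CMC or replicate 1 (-0.68, adjusted p = 0.0595) or 3 (-0.57, adjusted p = 0.101) of Ad-FAT10 CMC, and both calls were lost with library totals (-0.50 under Pema and -0.39 under CMC). Acacb had log2 changes of -0.62 ± 0.17 (SE, adjusted p = 0.00616) under Pema and -0.15 ± 0.17 (SE, adjusted p = 0.498) under CMC, with no overlap of the Pema groups, and with library totals its Pema change was -0.25 at an adjusted p of 0.199. Fasn had log2 changes of -0.22 ± 0.33 (SE, adjusted p = 0.629) under Pema and -0.06 ± 0.33 (SE, adjusted p = 0.901) under CMC. The log2 changes of Acly, Me1 and Acaca ran from -0.17 to 0.26 under Pema and from -0.04 to 0.20 under CMC, none called, although with library totals Acaca was called higher under both and Acly under Pema.

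In elongation and desaturation 4 of 5 elongases and 4 of 5 desaturases were lower under Pema and 2 and 2 under CMC (20.5% and 20.2% of all genes). With library totals alone 2 and 1 were lower under Pema and 0 and 0 under CMC (826 and 1061 of all 14770 genes). Elovl6 had log2 changes of -0.85 ± 0.17 (SE, adjusted p = 0.000769) under Pema and -0.38 ± 0.17 (SE, adjusted p = 0.0818) under CMC. Its Pema call held with library totals, and its CMC change passed without replicate 1 of Ad-FAT10 CMC (-0.51, adjusted p = 0.0281) and with no filter on low counts (-0.37, adjusted p = 0.0421). Elovl5 had log2 changes of -0.93 ± 0.21 (SE, adjusted p = 0.00195) under Pema and -0.53 ± 0.21 (SE, adjusted p = 0.0486) under CMC, but its CMC call was lost when 12 of the 16 libraries were left out singly (largest adjusted p 0.192, at -0.35, without replicate 4 of Ad-CTRL CMC), with library totals (-0.23, adjusted p = 0.4) and in a fit of the 2 compared groups alone (adjusted p = 0.0561). Elovl2 had log2 changes of -0.62 ± 0.15 (SE, adjusted p = 0.00278) under Pema and -0.53 ± 0.15 (SE, adjusted p = 0.00778) under CMC and Elovl3 had log2 changes of -0.78 ± 0.24 (SE, adjusted p = 0.0132) under Pema and -0.40 ± 0.24 (SE, adjusted p = 0.181) under CMC, and these calls were lost with library totals (-0.25 and -0.24 for Elovl2, -0.44 under Pema for Elovl3). Scd1 had log2 changes of -1.29 ± 0.25 (SE, adjusted p = 0.000505) under Pema and -0.54 ± 0.24 (SE, adjusted p = 0.0838) under CMC, with every Ad-FAT10 Pema library below every Ad-CTRL Pema library, and this Pema call held with library totals. Its CMC change passed without replicate 1 of Ad-CTRL CMC (-0.71, adjusted p = 0.0241) or replicate 1 of Ad-FAT10 Pema (-0.54, adjusted p = 0.0289), by the DESeq2 test (-0.56, adjusted p = 0.0376) and with no filter on low counts (-0.53, adjusted p = 0.0444).

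Fads1 had log2 changes of -0.69 ± 0.15 (SE, adjusted p = 0.00153) under Pema and -0.64 ± 0.15 (SE, adjusted p = 0.00264) under CMC, Fads2 had log2 changes of -0.74 ± 0.18 (SE, adjusted p = 0.00267) under Pema and -0.44 ± 0.18 (SE, adjusted p = 0.0523) under CMC and Fads3 had log2 changes of -0.68 ± 0.16 (SE, adjusted p = 0.00261) under Pema and -0.61 ± 0.17 (SE, adjusted p = 0.00686) under CMC. The Ad-FAT10 libraries of Fads1 and Fads3 lay below the Ad-CTRL libraries under both treatments, and with library totals alone none of the 3 genes was called, with changes of -0.37 to -0.32 under Pema and, under CMC, of -0.34 for Fads1, -0.14 for Fads2 and -0.31 for Fads3. Fads2 under CMC passed when 5 of the 16 libraries were left out singly (adjusted p down to 0.0221, without replicate 1 of Ad-CTRL CMC), with DESeq2 size factors (adjusted p = 0.0437), with the DESeq2 test (adjusted p = 0.024) and with no filter on low counts (adjusted p = 0.0364). Elovl1 and Scd2 went the other way, and both were still higher with library totals. In Ad-FAT10 livers Scd2 stood at 9.57, 19.3, 25.4 and 15.7 CPM with Pema and 16.5, 16.4, 14.0 and 16.5 CPM with CMC. In Ad-CTRL livers Scd2 stood at 8.71, 6.79, 7.73 and 7.40 CPM with Pema and 6.63, 7.39, 8.27 and 9.46 CPM with CMC. Every Ad-FAT10 library lay above every Ad-CTRL library of the same treatment, with the lowest Ad-FAT10 Pema library close to the Ad-CTRL ones. Scd2 had log2 changes of 1.19 ± 0.21 (SE, adjusted p = 0.000218) under Pema and 1.00 ± 0.21 (SE, adjusted p = 0.000978) under CMC and Elovl1 had log2 changes of 0.30 ± 0.11 (SE, adjusted p = 0.0402) under Pema and 0.45 ± 0.11 (SE, adjusted p = 0.00405) under CMC. The Elovl1 call under Pema was lost when 6 of the 16 libraries were left out singly (largest adjusted p 0.137, at 0.21, without replicate 1 of Ad-CTRL Pema).

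Of 6 genes of glycerol-phosphate acylation, 4 were lower under Pema and 3 under CMC (20.5% and 20.2% of all genes). With library totals alone 2 and 1 were lower (826 and 1061 of all 14770 genes). Gpat4 had log2 changes of -0.99 ± 0.13 (SE, adjusted p = 1.83e-05) under Pema and -0.60 ± 0.13 (SE, adjusted p = 0.00127) under CMC, without overlap under either treatment, and it kept its calls with library totals. Agpat2 had log2 changes of -0.95 ± 0.17 (SE, adjusted p = 0.000258) under Pema and -0.65 ± 0.17 (SE, adjusted p = 0.00491) under CMC and Agpat3 had log2 changes of -0.50 ± 0.09 (SE, adjusted p = 0.000371) under Pema and -0.43 ± 0.09 (SE, adjusted p = 0.00127) under CMC, also without overlap. With library totals Agpat2 was called under Pema and at -0.36 (adjusted p = 0.0573) under CMC, and Agpat3 was at -0.13 and -0.14, not called. Gpam had log2 changes of -0.33 ± 0.12 (SE, adjusted p = 0.0296) under Pema and -0.02 ± 0.12 (SE, adjusted p = 0.899) under CMC, and its Pema call was lost when 5 of the 16 libraries were left out singly (largest adjusted p 0.0832, at -0.29, without replicate 3 of Ad-CTRL Pema) and with no filter on low counts (-0.30, adjusted p = 0.0822), and the change turned to 0.037 with library totals. Gpat3, which rose most in this group with Pema, had log2 changes of -0.24 ± 0.16 (SE, adjusted p = 0.219) under Pema and 0.18 ± 0.19 (SE, adjusted p = 0.448) under CMC, and Agpat1 had a log2 change of 0.03 under Pema and 0.03 under CMC.

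Downstream of phosphatidate, Lpin2 had log2 changes of -0.42 ± 0.13 (SE, adjusted p = 0.0119) under Pema and -0.09 ± 0.13 (SE, adjusted p = 0.6) under CMC and Lpin3 had log2 changes of 0.55 ± 0.19 (SE, adjusted p = 0.0253) under Pema and 0.23 ± 0.18 (SE, adjusted p = 0.318) under CMC. The call of Lpin3 was lost when 4 of the 16 libraries were left out singly (largest adjusted p 0.0834, at 0.45, without replicate 1 of Ad-CTRL Pema), and Lpin2 was at -0.06 with library totals, not called. Lpin1 had log2 changes of 0.53 ± 0.29 (SE, adjusted p = 0.151) under Pema and -0.20 ± 0.28 (SE, adjusted p = 0.595) under CMC. Under Pema every Ad-FAT10 library of Lpin1 lay above every Ad-CTRL library. Without replicate 4 of Ad-FAT10 CMC the Lpin1 changes were called, at 0.53 (adjusted p = 0.0122) under Pema and -0.77 (adjusted p = 0.00238) under CMC. That library is in neither group compared under Pema, where the change stayed at 0.53, and it enters that test only through the fit shared by all libraries. The Pema change of Lpin1 also passed with library totals (0.90, adjusted p = 0.0188), with no filter on low counts (0.56, adjusted p = 0.0251) and in a fit of the 2 compared groups alone (0.55, adjusted p = 0.0214). Dgat2 fell, with log2 changes of -0.49 ± 0.14 (SE, adjusted p = 0.0101) under Pema and -0.61 ± 0.14 (SE, adjusted p = 0.00262) under CMC, without overlap under either treatment, and with library totals it was called under CMC and not under Pema (-0.13, adjusted p = 0.399). Dgat1 and Mogat1 had changes of 0.07 and -0.03 under Pema, and Pnpla3 and Pnpla5 of -0.30 and 0.24, none called.

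Markers of cell types moved with the virus. Over all genes 21.2% were called higher and 20.5% lower in Ad-FAT10 livers under Pema, and 22.5% and 20.2% under CMC. Of 9 hepatocyte markers 7 were lower and 0 higher in Ad-FAT10 livers under Pema, and 5 lower and 0 higher under CMC, against 3 lower and 1 higher under each with library totals alone. Of 8 neutrophil markers 5 were higher under Pema (6 with library totals) and 8 under CMC by both scalings, with summed levels of 18.2 to 27.5 CPM in Ad-FAT10 Pema livers, 39.8 to 126 CPM in Ad-FAT10 CMC livers, 6.58 to 10.5 CPM in Ad-CTRL Pema livers and 7.97 to 16.3 CPM in Ad-CTRL CMC livers. Pema also came with lower hepatocyte markers, 6 of 9 in Ad-FAT10 livers and 5 of 9 in Ad-CTRL livers, and with 8 of 8 neutrophil markers lower in Ad-FAT10 livers. The share of all genes lower with Pema was 12.5% in Ad-FAT10 livers and 14.4% in Ad-CTRL livers. Of 9 Kupffer cell and macrophage markers 4 were higher and 4 lower in Ad-FAT10 livers under both treatments, and of 7 endothelial markers 4 were lower under both, where library totals gave 5 higher and 3 lower macrophage markers and, under Pema, 2 higher and 3 lower endothelial ones. Of 6 adipocyte markers Lep was at 0 in every library. Without replicate 4 of Ad-FAT10 Pema 18 of the 34 genes were called with Pema in Ad-FAT10 livers. In Ad-FAT10 against Ad-CTRL livers under Pema 18 were called as well, and 0 for the difference between Pema responses. The part of these markers in the changes of the 34 genes was not tested.

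Genes around the pathway were tested in the same way. Of 50 further genes 47 were tested, and with Pema 15 were higher and 6 lower in Ad-FAT10 livers, and 18 higher and 6 lower in Ad-CTRL livers (12.9% and 12.5%, and 16.2% and 14.4%, of all genes). Acsl1, which activates long-chain fatty acids, rose, with log2 changes of 2.38 ± 0.18 (SE, adjusted p = 1.9e-08) in Ad-FAT10 livers and 2.20 ± 0.18 (SE, adjusted p = 3.37e-08) in Ad-CTRL livers, as did Acsl5, a related synthetase, with 0.96 ± 0.13 (SE, adjusted p = 4.23e-05) in Ad-FAT10 livers and 1.31 ± 0.14 (SE, adjusted p = 8.35e-07) in Ad-CTRL livers. Gpd1, which makes glycerol-phosphate for the acyltransferases, rose, with log2 changes of 1.40 ± 0.14 (SE, adjusted p = 8.38e-07) in Ad-FAT10 livers and 1.80 ± 0.14 (SE, adjusted p = 2.76e-08) in Ad-CTRL livers. Of 6 elongation cycle partners tested, 3 rose in Ad-FAT10 livers and 4 in Ad-CTRL livers. Hsd17b12, the ketoacyl-CoA reductase, had log2 changes of 0.85 ± 0.11 (SE, adjusted p = 1.6e-05) in Ad-FAT10 livers and 1.31 ± 0.11 (SE, adjusted p = 6.63e-08) in Ad-CTRL livers. Hacd3, a dehydratase, had log2 changes of 0.87 ± 0.11 (SE, adjusted p = 1.85e-05) in Ad-FAT10 livers and 0.92 ± 0.11 (SE, adjusted p = 5.98e-06) in Ad-CTRL livers.

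In the mitochondrial pathway of fatty acid synthesis Ndufab1, the acyl carrier protein, rose, with log2 changes of 1.22 ± 0.12 (SE, adjusted p = 6.08e-07) in Ad-FAT10 livers and 1.54 ± 0.12 (SE, adjusted p = 2.26e-08) in Ad-CTRL livers. Acsf3, a malonyl-CoA synthetase, had log2 changes of 0.83 ± 0.11 (SE, adjusted p = 1.9e-05) in Ad-FAT10 livers and 0.84 ± 0.11 (SE, adjusted p = 1.21e-05) in Ad-CTRL livers. Insig2, which holds SREBPs in the endoplasmic reticulum, rose, with log2 changes of 0.84 ± 0.16 (SE, adjusted p = 0.000719) in Ad-FAT10 livers and 1.55 ± 0.16 (SE, adjusted p = 8.6e-07) in Ad-CTRL livers. Among suppliers of substrate, Acss3 had log2 changes of 1.45 ± 0.27 (SE, adjusted p = 0.000571) in Ad-FAT10 livers and 2.08 ± 0.27 (SE, adjusted p = 1.01e-05) in Ad-CTRL livers, and Idh1, a source of NADPH, of 0.73 ± 0.10 (SE, adjusted p = 4.61e-05) in Ad-FAT10 livers and 0.79 ± 0.10 (SE, adjusted p = 1.37e-05) in Ad-CTRL livers. Slc2a2, the hepatocyte glucose transporter, had log2 changes of -0.83 ± 0.14 (SE, adjusted p = 0.000276) in Ad-FAT10 livers and -0.71 ± 0.14 (SE, adjusted p = 0.00077) in Ad-CTRL livers, and Pklr, the liver pyruvate kinase, of -1.39 ± 0.25 (SE, adjusted p = 0.00048) in Ad-FAT10 livers and -1.95 ± 0.25 (SE, adjusted p = 1.24e-05) in Ad-CTRL livers. Mogat2, the intestinal counterpart of Mogat1, fell where Mogat1 rose, with log2 changes of -1.87 ± 0.41 (SE, adjusted p = 0.00225) in Ad-FAT10 livers and -2.65 ± 0.48 (SE, adjusted p = 0.000332) in Ad-CTRL livers. Mogat2 was close to the detection limit, at 0.0772 to 0.229 CPM in Ad-FAT10 Pema livers and 0.0519 to 0.160 CPM in Ad-CTRL Pema livers. With CMC it was at 0.361 to 0.765 CPM in Ad-FAT10 livers and 0.370 to 0.977 CPM in Ad-CTRL livers. The naming rule also took Lclat1, Mbtps1 and Rxra, whose log2 changes in Ad-FAT10 livers were 0.37, 0.11 and -0.43 and in Ad-CTRL livers 0.89, 0.34 and -0.35, of which that of Mbtps1 in Ad-FAT10 livers was not called.

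In Ad-FAT10 against Ad-CTRL livers 6 of the 47 were higher and 21 lower under Pema, and 8 higher and 14 lower under CMC (21.2% and 20.5%, and 22.5% and 20.2%, of all genes), a split that turned to 17 higher and 9 lower, and 16 higher and 4 lower, with library totals alone. Pgd, G6pdx, Elovl7, Acss1, Scap, Gpat2 and Slc27a5 kept their direction and their call with both scalings. Pgd, an NADPH-making enzyme of the pentose phosphate pathway, had log2 changes of 1.66 ± 0.26 (SE, adjusted p = 9.92e-05) under Pema and 1.78 ± 0.26 (SE, adjusted p = 5.19e-05) under CMC. G6pdx, the enzyme that opens that pathway, had log2 changes of 0.90 ± 0.15 (SE, adjusted p = 0.000153) under Pema and 0.84 ± 0.15 (SE, adjusted p = 0.00025) under CMC. Elovl7, an elongase, had log2 changes of 3.36 ± 0.54 (SE, adjusted p = 0.000119) under Pema and 3.54 ± 0.64 (SE, adjusted p = 0.000304) under CMC. Its Ad-CTRL levels were low, at 0.397 to 0.726 CPM with Pema and 0.117 to 0.412 CPM with CMC, the latter close to the detection limit. Acss1, the mitochondrial acetyl-CoA synthetase, had log2 changes of 1.69 ± 0.26 (SE, adjusted p = 8.16e-05) under Pema and 1.04 ± 0.26 (SE, adjusted p = 0.0043) under CMC. Scap, the escort of SREBPs, had log2 changes of -0.86 ± 0.15 (SE, adjusted p = 0.000277) under Pema and -0.68 ± 0.15 (SE, adjusted p = 0.00194) under CMC, Gpat2 of -1.51 ± 0.27 (SE, adjusted p = 0.000262) under Pema and -1.61 ± 0.26 (SE, adjusted p = 0.000112) under CMC, and Slc27a5, a bile acid and fatty acid CoA ligase, of -1.23 ± 0.15 (SE, adjusted p = 1.15e-05) under Pema and -0.92 ± 0.15 (SE, adjusted p = 0.00013) under CMC. The naming rule also took Acsl1, Acsl5, Hacd1, Hsd17b12, Mcat, Oxsm, Ndufab1, Agpat4, Gpd1, Mbtps2 and Trib1 in at least 1 of the 2 treatments, with log2 changes from -1.03 (Acsl1 under CMC) to 0.57 (Agpat4 under Pema). With library totals alone Acsl1 was still lower and Agpat4 still higher under both treatments, Mbtps2 was higher under both, Hsd17b12, Ndufab1 and Gpd1 were lower under Pema, and Acsl5, Hacd1, Mcat, Oxsm and Trib1 were called under neither, with the sign of Mcat under Pema and those of Hsd17b12 and Trib1 under CMC turned. For a difference between the Pema responses 0 of the 47 were called by edgeR or by DESeq2. By edgeR 6 of the 47 had an unadjusted p under 0.05, where 1591 of all 14770 genes did.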

How the data were processed

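Each liver has 1 deposited file of raw, unscaled counts for Ensembl genes. Per the labels' protocols, mRNA was captured with oligo(dT), dUTP marked the strand and DNBSEQ was the sequencing platform. The submitters' processing notes list, with no roles, the build GRCm39 and the tools STAR (2.7.6) and DESeq2 (versions 2.11.40.6 and 1.36.0). Which program, annotation and strand setting produced the counts is not given in the sources used here. Counts of overlapping genes and of close paralogs are uncertain for that reason. Groups and replicate numbers came from the sample titles, and the labels give no batch. Symbols were matched from GENCODE M21 (52083 of 55416 identifiers), whose exon lengths on build GRCm38 gave the levels per kilobase.

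A single edgeR 4.0.16 quasi-likelihood model (R 4.3.3) took all 16 libraries and 4 group means after filterByExpr and TMM scaling. It covered 14770 genes with 12 residual degrees of freedom and a common BCV (biological coefficient of variation) of 0.151. Adjusted p-values are Benjamini-Hochberg values over all 14770 genes, and a gene was called under 0.05. The standard error is the absolute log2 change divided by the square root of the F statistic, so it restates the test. CPM used TMM effective library sizes, and levels are mean ± SD over 4 livers. The model was tested on simulated counts. No replicate pair was identical (24 pairs, chi-square per gene 14.5 to 119). The floor of 3 counts covers counting error only.

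Alternatives were DESeq2 size factors, library totals alone, no filter on low counts (at least 1 count), a stricter one (at least 10 counts in 8 libraries), the DESeq2 1.42.0 Wald test, fits of only the compared groups, a replicate block, and leaving out each library. All libraries share 1 fit, so leaving out a library outside the compared groups can also move a call, and counts of lost or gained calls include such libraries. The genes and lists were chosen with earlier results of these data known. All 34 genes are described, with every library's value for those called in at least 1 comparison with an absolute log2 change of at least 1 there, and for Srebf1, Mlxipl and Fasn. From each list of surrounding genes up to 2 with the smallest p per comparison were named, and for the difference between Pema responses, where none was called, they are given as a count. Library totals for marker lists and surrounding genes were tried after seeing the data. Of the marker lists, hepatocyte, neutrophil, macrophage, endothelial and adipocyte markers are given in the report and the others in the closing section. RefSeq promoter windows were not matched for Elovl3, Dgat1, Gpat4, Scd1, Scd2, Dgat2 and Fads1.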

Additional observations from a re-analysis of the deposited data

Results flagged for a closer look

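In 8 of 136 groups of 4 libraries (34 genes in 4 groups), the highest or lowest library lay apart from the other 3 by more than the 95% critical value of Dixon's test, where chance gives about 5% of groups. In Ad-FAT10 CMC livers replicate 4 was apart for Lpin1 at 215 CPM (the others at 68.6 to 81.9 CPM), for Fasn at 448 CPM and for Pnpla3 at 1.30 CPM, and replicate 3 for Scd2 at 14.0 CPM. In Ad-CTRL CMC livers replicate 4 was apart for Elovl1 at 50.8 CPM. In Ad-CTRL Pema livers replicate 4 was apart for Elovl6 at 100.5 CPM, and replicate 3 for Mogat1 at 8.13 CPM and for Agpat1 at 16.7 CPM. Of these, Lpin1 is the gene whose calls depended on the library: without it the difference between the Pema responses was 1.30 on the log2 scale (adjusted p = 0.0303 by edgeR), against 0.73 (adjusted p = 0.534) with it.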

How the results depend on the processing

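Of 21 genes called for Pema in Ad-CTRL livers 19 were called under every alternative, and of 20 in Ad-FAT10 livers 17 were. For Ad-FAT10 against Ad-CTRL 6 of 20 kept their call under every alternative with Pema and 4 of 13 with CMC, and 17 and 9 kept it whichever library was left out. With library totals 8 genes were called under CMC, and Gpam turned to 0.037 under Pema. The median log2 change of the 34 genes was then 0.12 under CMC and -0.012 under Pema, beside 0.28 and 0.34 over all genes. When a library was left out, the median ran from 0.19 to 0.47 for Pema in Ad-CTRL livers and from -0.37 to -0.034 for Ad-FAT10 under CMC, and the count called for a difference between Pema responses ran from 0 to 1. Whether the replicate numbers pair the mice is not given in the labels. Deviations of same-numbered libraries correlated between -0.172 and 0.172 (median 0.004, 3 of 24 pairs over 0.1), and 5 of 16 libraries correlated best with their own number. This check showed no clear pairing but cannot exclude it. With a replicate block Pnpla5 lost its call for Pema in Ad-FAT10 livers (-1.71, adjusted p = 0.0565 by edgeR), Thrsp was called for Ad-FAT10 under Pema (-0.86, adjusted p = 0.0253), and no other call among the 34 genes changed. Among the 34 genes depth limits Pnpla3 and Pnpla5, which had 3 counts or fewer in 2 and 4 libraries. Among the surrounding genes Mogat2 fell to 0.0519 CPM and Elovl7 to 0.117 CPM in their lowest Ad-CTRL libraries.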

Other observations

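Marker lists of other liver cells, given as summed levels, showed the following ranges. For the counts called in Ad-FAT10 against Ad-CTRL livers, 21.2% of all genes were higher and 20.5% lower under Pema, and 22.5% and 20.2% under CMC. T, NK and B cell markers summed to 20.3 to 46.3 CPM in Ad-FAT10 Pema livers, 22.4 to 31.6 CPM in Ad-FAT10 CMC livers, 11.9 to 19.1 CPM in Ad-CTRL Pema livers and 12.6 to 21.2 CPM in Ad-CTRL CMC livers, so the Ad-FAT10 libraries lay above the Ad-CTRL libraries under both treatments. Of these 9 markers 5 were higher and 3 lower under each treatment, against 5 higher and 1 lower under Pema and 5 higher and 3 lower under CMC with library totals alone. Stellate cell and fibroblast markers summed to 178 to 285 CPM in Ad-FAT10 Pema livers, 170 to 243 CPM in Ad-FAT10 CMC livers, 249.8 to 371 CPM in Ad-CTRL Pema livers and 278 to 312 CPM in Ad-CTRL CMC livers. Of 7 such markers 3 were lower and 2 higher under Pema, and 4 lower and 0 higher under CMC, against 2 and 2 under Pema and 1 and 1 under CMC with library totals alone. Of 5 cholangiocyte markers tested 0 were called under Pema and 2 were higher under CMC, against 3 and 2 higher with library totals alone.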
